A study of Mus musculus with 3 samples.

Results

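The genes described here are the Rab GTPase family together with 7 genes of receptor-mediated uptake: the receptor genes Lrp2, Cubn, Amn and Sort1 and the coat and adaptor genes Dab2, Cltc and Ap2a1. Rab genes were taken by symbol, as Rab followed by a number and at most 1 letter. This gave 59 Rab genes, and with the 7 uptake genes 66 of the 24346 genes in the deposited table. RNA came from the initial segment and caput, the proximal epididymis, of 14-week-old mice that the labels call Ovch2-/- and untreated. The labels gave 1 group of 3 libraries, called here replicates 1, 2 and 3, and do not say whether each is a separate animal, nor which strain was used or which exons of Ovch2 were deleted. Ovch2 encodes a secreted, ovochymase-type protease of the proximal epididymis. No tissue of another genotype was analysed here, so every value below is a level or a difference between libraries of 1 group, without a group test, and none is an effect of the genotype.

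Rab proteins are small GTPases that cycle between a GDP-bound form in the cytosol and a GTP-bound form on a membrane, and each marks a particular compartment and recruits the effectors that move, tether or fuse its vesicles. Megalin (Lrp2) and cubilin with amnionless (Cubn, Amn) are the large apical uptake receptors of absorptive epithelia such as the kidney proximal tubule. Their cargo enters through clathrin-coated pits, to which DAB2 and the AP-2 complex link them. The epididymal epithelium is known to take up proteins from the lumen by this route and to secrete others into it.

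All 66 genes matched RefSeq by gene identifier. The libraries held 729695, 745294 and 814000 FPKM (fragments scaled to transcript length and library size, so a per-length level) in replicates 1, 2 and 3. The table holds no counts, so absolute depth is unknown. Among genes below 0.5 FPKM in both libraries, the commonest ratio of replicate 2 to replicate 1 was 1.21 and that of replicate 3 to replicate 1 was 1.39, which places replicate 1 as the deepest if these steps are single fragments. Replicate 1 also stood apart in its markers. The summed level of 9 markers of initial segment principal cells was 186 FPKM there against 31848 and 32955 FPKM in replicates 2 and 3, with all 9 lowest in replicate 1 and Lcn9 listed at 0. Of these, 8 were 2-fold or more below each other library, while Ros1, at 21.1, 36.6 and 34.8 FPKM, was less than 2-fold below. The summed level of 5 germ cell markers was 0.301 FPKM against 159 and 219 FPKM, with Prm1, Prm2, Tnp2 and Odf1 listed at 0 in replicate 1. Clear and narrow cell markers summed to 176, 115 and 105 FPKM, with 5 of 7 highest in replicate 1, and macrophage markers to 138, 229 and 252 FPKM, with all 7 lowest there. Caput principal cell markers summed to 52103, 44756 and 50245 FPKM, although 4 of 7 were lowest in replicate 1 and 2 highest. The lowest included Gpx5 at 25918, 35882 and 32210 FPKM and Crisp1 at 2.07, 758 and 171 FPKM. The 2 highest were Lcn5 at 21673, 4290 and 13581 FPKM and Rnase9 at 2479, 364 and 1686 FPKM. Of the labelled tissue, replicate 1 thus showed 8 of 9 initial segment markers 2-fold or more lower, while its caput markers differed in both directions. Of the other marker lists, smooth muscle summed to 723, 1781 and 1713 FPKM, with Actg2 at 49.9, 1341 and 1316 FPKM and the 5 other genes highest in replicate 1. Fibroblast markers summed to 172, 218 and 196 FPKM, basal cell markers to 169, 126 and 149 FPKM, endothelial markers to 12.2, 30.3 and 17.5 FPKM, multiciliated cell markers to 16.3, 8.83 and 12.2 FPKM, and red cell markers to 9.46, 32.1 and 121 FPKM. T and B cell markers summed to at most 1.92 FPKM and adipocyte markers to at most 1.30 FPKM. The part of these marker differences in any result below was not tested, and in bulk tissue fewer cells of a type and less RNA per cell cannot be told apart. Ovch2 itself stood at 4.50, 80.2 and 77.2 FPKM, and without the deleted exons being known this checks nothing.

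Promoters of 6 members are shown because their genes carry the contrasts described below: the receptor genes Lrp2 and Cubn, which were low, the adaptor gene Dab2, the Rab gene of highest level, Rab7, and the paralogues Rab25 and Rab11a. Each is the window from 250 bases before to 50 bases after the most upstream start annotated by RefSeq (GRCm38.p6, which has the mm10 coordinates), 5′ to 3′ on the gene's strand. Capitals mark GGGCGG, the GC box, and CCGGAA, a core of ETS factor sites, each on either strand. The windows are chr2:69585980-69586279 (minus strand) for Lrp2, chr2:13491827-13492126 (minus) for Cubn, chr15:6299539-6299838 (plus) for Dab2, chr6:88045221-88045520 (minus) for Rab7, chr3:88548230-88548529 (minus) for Rab25 and chr9:64737707-64738006 (minus) for Rab11a.
Lrp2: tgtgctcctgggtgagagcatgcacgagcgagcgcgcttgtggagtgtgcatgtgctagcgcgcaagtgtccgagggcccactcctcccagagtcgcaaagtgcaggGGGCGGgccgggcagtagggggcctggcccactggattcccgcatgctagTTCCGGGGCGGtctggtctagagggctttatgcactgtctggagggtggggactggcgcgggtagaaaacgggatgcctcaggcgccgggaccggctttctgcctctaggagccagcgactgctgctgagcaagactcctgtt
Cubn: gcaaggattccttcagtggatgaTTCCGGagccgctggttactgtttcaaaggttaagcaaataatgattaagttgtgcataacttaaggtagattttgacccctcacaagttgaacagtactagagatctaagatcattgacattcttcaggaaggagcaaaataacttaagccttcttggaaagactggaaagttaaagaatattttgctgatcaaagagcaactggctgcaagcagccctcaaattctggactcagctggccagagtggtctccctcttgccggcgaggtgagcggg
Dab2: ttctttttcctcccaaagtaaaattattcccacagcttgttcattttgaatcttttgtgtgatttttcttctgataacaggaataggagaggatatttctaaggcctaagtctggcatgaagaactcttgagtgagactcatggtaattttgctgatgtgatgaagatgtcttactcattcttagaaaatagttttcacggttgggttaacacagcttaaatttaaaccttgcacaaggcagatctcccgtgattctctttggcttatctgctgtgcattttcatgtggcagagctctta
Rab7: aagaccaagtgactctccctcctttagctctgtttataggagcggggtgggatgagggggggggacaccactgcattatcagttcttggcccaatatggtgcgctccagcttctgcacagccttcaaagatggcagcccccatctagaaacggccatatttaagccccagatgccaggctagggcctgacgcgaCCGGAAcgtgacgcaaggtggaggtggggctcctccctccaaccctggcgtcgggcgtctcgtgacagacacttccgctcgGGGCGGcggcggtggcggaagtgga
Rab25: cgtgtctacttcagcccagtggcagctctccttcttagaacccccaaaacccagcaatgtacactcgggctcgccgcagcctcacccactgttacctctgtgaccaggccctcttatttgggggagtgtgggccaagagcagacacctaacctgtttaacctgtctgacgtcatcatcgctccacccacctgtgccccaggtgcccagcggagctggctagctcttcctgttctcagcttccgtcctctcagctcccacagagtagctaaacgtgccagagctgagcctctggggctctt
Rab11a: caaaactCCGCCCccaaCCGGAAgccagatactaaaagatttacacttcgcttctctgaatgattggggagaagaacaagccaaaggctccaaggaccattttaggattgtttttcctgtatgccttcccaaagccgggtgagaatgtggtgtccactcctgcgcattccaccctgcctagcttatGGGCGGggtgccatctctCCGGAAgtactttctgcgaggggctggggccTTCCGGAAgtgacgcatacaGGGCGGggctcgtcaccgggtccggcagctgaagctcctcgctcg

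The Rab11a window held 3 GC boxes and 4 CCGGAA matches, 2 of which overlap on opposite strands in TTCCGGAA, and the Rab25 window held neither. The Lrp2 window held 2 GC boxes and 1 CCGGAA match, which overlaps one of them by a base, while the Cubn window held 1 CCGGAA match and no GC box. The Rab7 window held 1 of each, and the Dab2 window neither, with a GC content of 37.7%. Dab2 and Rab7 each have 2 annotated starts, and which start was used cannot be read from a gene-level value. The window of the other Dab2 start held CCGGAA but no GC box, with a GC content of 59.3%, and that of the other Rab7 start held both. Over the 54 members with a window in the RefSeq table, 74.1% held a GC box at any annotated start, against 38.2% of 27025 genes, and 33.3% held CCGGAA, against 16.7%. The TATA box TATAAA was found for 7.41% of members against 15.7% of genes, and CCAAT for 51.9% against 41.1%, both strands searched. Members' windows were also richer in G and C, which bears on how often such letters occur. With the most GC-rich annotated start taken for each gene, the median GC content was 63.3% against 53.3%. A match of letters is a description and not a bound site. Members with a GC box had a median level of 4.13 on the log2(mean FPKM + 1) scale (n = 40) and those without it 3.90 (n = 14).

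The apical receptor genes Lrp2, Cubn and Amn were low, while their adaptor, their coat and the sorting receptor gene Sort1 were abundant. Lrp2, the megalin gene (NCBI gene 14725, mm10 chromosome 2, 69424335 to 69586029, minus strand), stood at 2.01, 0.748 and 1.18 FPKM in replicates 1, 2 and 3, or 1.31 ± 0.644 FPKM (SD, n = 3). Cubn, the cubilin gene (chromosome 2, 13276338 to 13491876, minus strand), stood at 0.0458, 0.00698 and 0.0240 FPKM. Amn, whose product carries cubilin to the apical membrane (chromosome 12, 111271096 to 111276426, plus strand), stood at 0.173, 0.264 and 0.664 FPKM. In every library Lrp2 was above Amn and Amn above Cubn, and Cubn and Amn were below 1 FPKM throughout. The label of apical endocytosis receptors therefore describes genes of which 3, Lrp2, Cubn and Amn, had means of at most 1.31 FPKM, and the set is called here by its genes.

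Dab2, the clathrin adaptor gene of megalin and related receptors (chromosome 15, 6299788 to 6440715, plus strand), had the highest mean of the 66 genes, which rested on replicate 1: without it the mean was 123 FPKM, below Sort1 at 149 and Rab7 at 136 FPKM. Its level was 217, 137 and 108 FPKM in replicates 1, 2 and 3, or 154 ± 56.6 FPKM (SD, n = 3), highest in replicate 1. The ratio of Dab2 to Lrp2, which needs no scaling between libraries, was 108, 183 and 91.5. In replicate 1, clear and narrow, basal, multiciliated and caput principal cell markers summed highest, and 5 of 6 smooth muscle genes were highest. Initial segment, germ cell, macrophage, fibroblast, endothelial and red cell markers summed lowest there (above). The part of any of these cell types in the level of Dab2 was not tested. Sort1, the gene of sortilin, which sorts cargo between the Golgi, the surface and endosomes (chromosome 3, 108283974 to 108361519, plus strand), stood at 144, 158 and 139 FPKM, or 147 ± 9.79 FPKM (SD, n = 3). Its ratio to Lrp2 was 71.6, 211 and 118, so the order of the receptor genes was the same in all 3 libraries.

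The coat genes among the members, Cltc and Ap2a1, were near each other in level. Other clathrin and AP-2 subunit genes differed more, from Ap2a2 at a mean of 31.5 FPKM to Clta at 204 FPKM. Cltc, the clathrin heavy chain gene, stood at 39.2, 52.0 and 41.8 FPKM, and Ap2a1, an AP-2 alpha subunit gene, at 39.2, 42.2 and 39.4 FPKM. Their ratio was 1.0, 1.23 and 1.06, and their ranges over the libraries overlapped. Ap2a1 had 1 of the 5 narrowest spreads of the 55 members averaging 1 FPKM or more, 0.11 on the log2(FPKM + 1) scale.

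**Figure D1:**
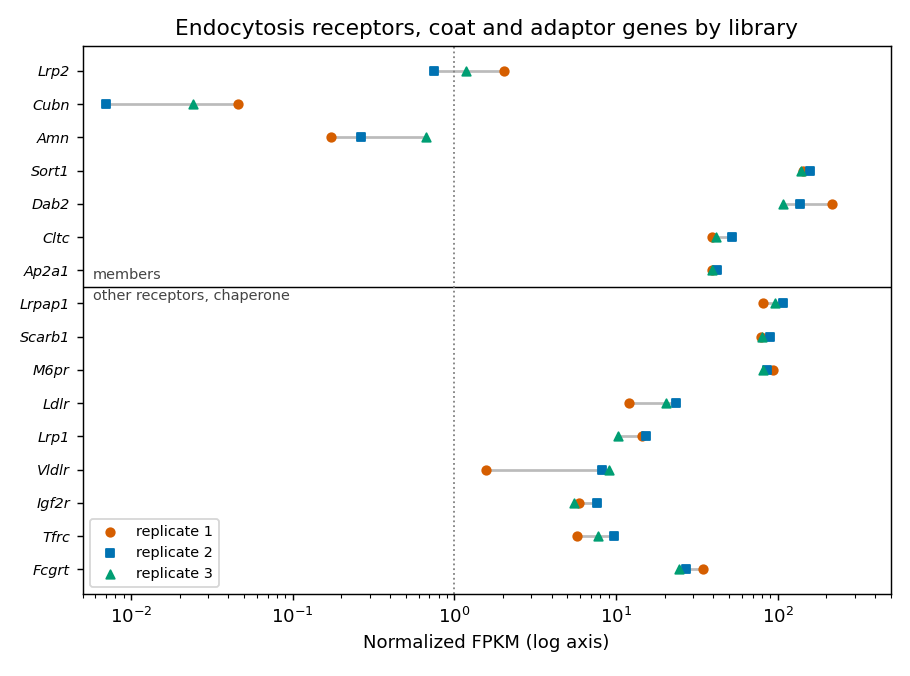
Normalized FPKM on a log axis of the 7 uptake genes (above the line) and of other receptor genes and the receptor chaperone gene Lrpap1 (below it), with 1 point per library and a grey line from the lowest to the highest. The dotted line is 1 FPKM: Cubn and Amn lie left of it in all 3 libraries, Lrp2 crosses it at 0.748 to 2.01 FPKM, and Sort1 and Dab2 lie above 100 FPKM in every library.

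Other genes of the uptake route, from lists of known partners, were mostly read at higher levels than Lrp2. Lrpap1, the chaperone gene of megalin and its relatives in the secretory pathway, stood at 80.8, 108 and 95.8 FPKM, and Gipc1, an adaptor gene that binds megalin's tail, at 108, 152 and 152 FPKM. Of the other receptor genes, Scarb1, a lipoprotein receptor, stood at 78.9, 89.5 and 80.1 FPKM, M6pr, a mannose-6-phosphate receptor, at 94.0, 86.2 and 81.5 FPKM, and Lrp1, a megalin relative, at 14.5, 15.4 and 10.3 FPKM. Each of these exceeded Lrp2 in every library. Of the 21 genes of this list, 17 had a mean of at least 1 FPKM. Lrp1b, another megalin relative, was listed at 0 in all 3 libraries. Vldlr, a lipoprotein receptor, stood at 1.56, 8.25 and 9.01 FPKM and was the 1 gene of the list that replicate 1 showed 2-fold or more below each other library (4.07% of all genes).

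Most of the Rab family was expressed. Of the 59 Rab genes, 50 had a mean of at least 1 FPKM, 31 of at least 10 FPKM and 2 of at least 100 FPKM. With the uptake genes this was 55 of 66 members at or above 1 FPKM, 83.3%, against 53.7% of all genes in the table. Just inside that limit were Rab27a at a mean of 1.12, Lrp2 at 1.31 and Rab7b at 1.52 FPKM, and just outside were Rab27b at 0.666, Rab39b at 0.653, Rab3b at 0.578 and Rab33a at 0.517 FPKM. No member was listed at 0 in any library. The median level of the 55 was 4.35 on the log2(mean FPKM + 1) scale, against 3.55 for all 13073 genes averaging 1 FPKM or more. The Rab genes summed to 1391, 1479 and 1453 FPKM in replicates 1, 2 and 3, or 1441 ± 44.9 FPKM (SD, n = 3), and the 10 highest took 57.7 ± 0.671% of that sum.

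**Figure D2:**
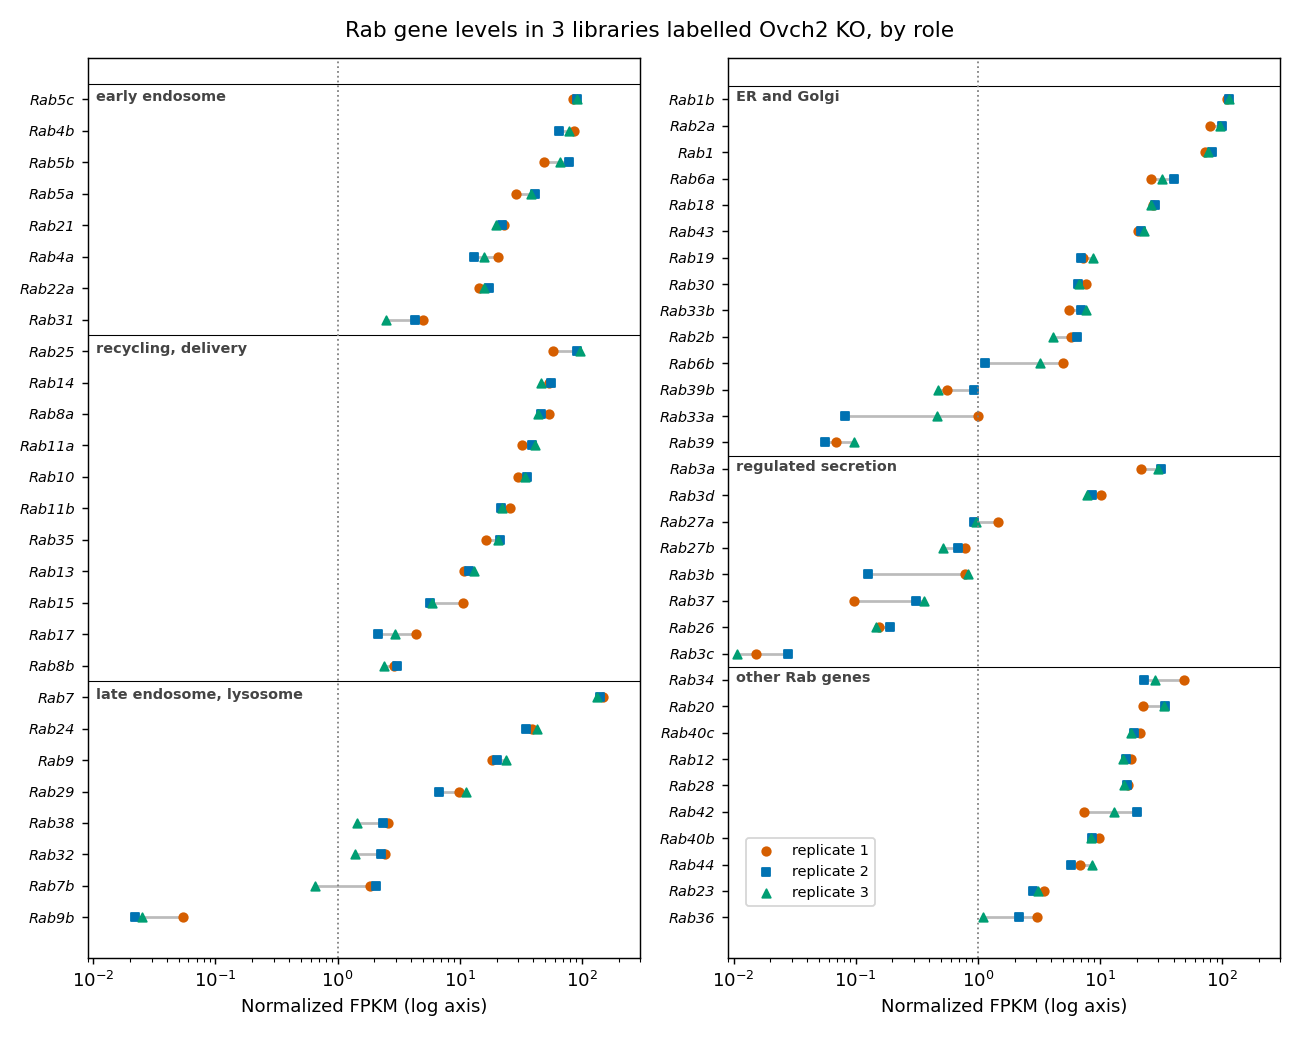
Normalized FPKM on a log axis of the 59 Rab genes in each of the 3 libraries, grouped by role and ordered by mean within a group, with a grey line from the lowest to the highest library. The dotted line is 1 FPKM: all 8 early endosome genes and all 11 recycling genes have means above it, while 5 of 8 regulated secretion genes have means below it.

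Rab7 led the family in every library. Rab7, which drives the fusion of late endosomes with lysosomes (chromosome 6, 87999106 to 88045270, minus strand), stood at 148, 140 and 133 FPKM, or 140 ± 7.75 FPKM (SD, n = 3). Rab1b, of transport from the endoplasmic reticulum to the Golgi, was next in every library at 110, 114 and 113 FPKM, with a spread of 0.05 on the log2(FPKM + 1) scale, the narrowest of the 55 members at or above 1 FPKM on average. The ranges of Rab7 and Rab1b did not overlap, nor did those of Rab1b and the third gene, Rab2a (79.8, 98.8 and 95.9 FPKM). From Rab2a through Rab5c, Rab25, Rab1, Rab4b, Rab5b and Rab14 to Rab8a, each gene overlapped the next in range, while Rab8a and the next gene, Rab24, did not overlap. Compared within each library, Rab14 lay above Rab8a in all 3, by 4.18 ± 5.23 FPKM (SD). The other neighbours from Rab2a to Rab14 kept their order in 1 or 2 of the 3 libraries. Between replicates the 59 Rab genes kept a similar order, and Spearman's rho across these genes was 0.978 (replicate 1 with 2), 0.986 (replicate 1 with 3) and 0.988 (replicate 2 with 3), given as a description.

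The early endosome genes, which receive material just taken up, made 22.4 ± 0.097% of the summed Rab FPKM (SD, n = 3), and all 8 had a mean of at least 1 FPKM. Rab5c, 1 of the 3 Rab5 genes that fuse incoming vesicles, led at 83.7, 90.9 and 91.0 FPKM. Rab5b stood at 49.3, 77.8 and 66.1 FPKM and Rab5a at 28.9, 41.2 and 38.4 FPKM, both lowest in replicate 1. The rapid recycling genes went the other way, with Rab4b at 85.8, 64.5 and 77.7 FPKM and Rab4a at 20.5, 13.0 and 15.9 FPKM, both highest in replicate 1. The lowest of the group was Rab31, of transport between the Golgi and endosomes, at 4.97, 4.28 and 2.51 FPKM. These differences were all under 2-fold. Rab4b shares exon positions with other genes on its strand in the GENCODE annotation, so its reads could be split.

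Recycling and delivery to the apical or basolateral surface was represented by 11 genes, all with a mean of at least 1 FPKM, which made 22.2 ± 0.698% of the summed Rab FPKM (SD, n = 3). Rab25, an epithelial member of the Rab11 group that acts in apical recycling (chromosome 3, 88542029 to 88548279, minus strand), led them. It stood at 58.0, 91.8 and 97.1 FPKM, or 82.3 ± 21.2 FPKM (SD, n = 3), and replicate 1 was below the other libraries. Its broadly expressed relatives stood at 32.1, 39.2 and 41.6 FPKM (Rab11a) and at 25.9, 21.7 and 22.05 FPKM (Rab11b). Rab25 thus made 50.01%, 60.1% and 60.4% of the Rab11 group, and exceeded Rab11a 1.81-fold, 2.34-fold and 2.33-fold in replicates 1, 2 and 3. Rab11a shares exon positions with another gene on its strand, so its reads could be split, which would bear on this share and ratio. Rab14, which moves cargo between the Golgi and endosomes, stood at 53.5, 56.1 and 46.0 FPKM, and Rab8a, of delivery to the surface and the cilium, at 53.3, 46.0 and 43.8 FPKM. Rab17, an epithelial Rab of transcytosis, stood at only 4.40, 2.13 and 2.97 FPKM. Rab15, of the endosome, stood at 10.6, 5.68 and 5.89 FPKM, highest in replicate 1.

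The motor and adaptor genes that Rab11 proteins recruit were also read. Myo5b, the myosin motor gene for Rab11 and Rab25 vesicles, stood at 19.3, 53.4 and 49.6 FPKM, lowest in replicate 1 as Rab25 was, while Myo5a, its relative, stood at 0.305, 0.419 and 0.380 FPKM. A lowest value in replicate 1 was common, found for 5395 of all 13073 genes averaging 1 FPKM or more and 21 of the 55 members. The ratio of Rab25 to Myo5b was 3.004, 1.72 and 1.96. The Rab11 adaptor genes did not share 1 pattern. Rab11fip1, at 13.5, 15.7 and 14.3 FPKM, and Rab11fip5, at 5.34, 10.1 and 7.31 FPKM, were lowest in replicate 1. Rab11fip2, at 8.14, 5.84 and 4.18 FPKM, Rab11fip3, at 20.8, 16.4 and 15.5 FPKM, and Rab11fip4, at 36.8, 35.4 and 19.2 FPKM, were highest there. The initial segment markers were lowest in replicate 1 as well (186 against 31848 and 32955 FPKM summed), and their part in the levels of Rab25 and Myo5b was not tested.

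**Figure D3:**
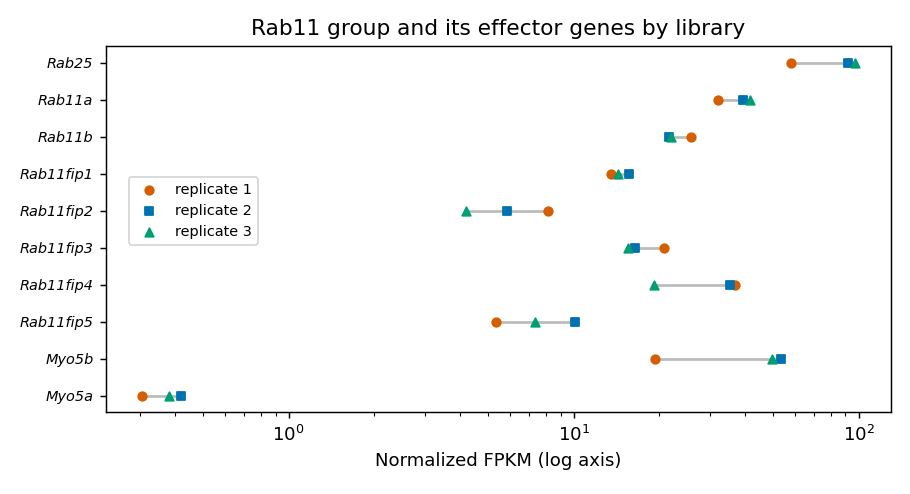
Normalized FPKM on a log axis of the 3 Rab11 group genes, 5 Rab11 adaptor genes and the myosin genes Myo5b and Myo5a, with 1 point per library and a grey line over the range. Rab25 lies above Rab11a and Rab11b in every library, and Rab25 and Myo5b have their lowest value in replicate 1 (58.0 and 19.3 FPKM).

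Late endosome and lysosome genes made 14.9 ± 0.948% of the summed Rab FPKM (SD, n = 3), with Rab7 (148, 140 and 133 FPKM, above) the largest contributor. Rab24, a Rab of autophagy, stood at 38.7, 34.8 and 42.9 FPKM, and Rab9, which returns mannose-6-phosphate receptors to the Golgi, at 18.2, 20.003 and 23.8 FPKM. Rab32 and Rab38, known from melanosomes, had means below 5 FPKM, and Rab9b was at most 0.0538 FPKM. Rab7b, of transport from late endosomes to the Golgi, stood at 1.85, 2.05 and 0.654 FPKM, lowest in replicate 3. Rab7b and Rab29 are the closest members in the genome, 152 kb apart on chromosome 1, and Rab43 and Rab7 follow at 187 kb on chromosome 6. These neighbours were not alike in level, with Rab29 at a mean of 9.29 FPKM against 1.52 FPKM for Rab7b, and Rab43 at 21.6 FPKM against 140 FPKM for Rab7. The lysosome genes that Rab7 traffic reaches were abundant, led by the membrane protein gene Lamp1 at 746, 457 and 487 FPKM, highest in replicate 1, while Tfeb, a transcription factor gene of lysosome biogenesis, was the lowest of that list at 7.18, 10.1 and 9.25 FPKM.

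The endoplasmic reticulum and Golgi genes took the largest share of the role groups, 27.3 ± 0.803% of the summed Rab FPKM (SD, n = 3), from 14 genes of which 11 had a mean of at least 1 FPKM. Rab1b, Rab2a and Rab1 (the gene of RAB1A, at 71.8, 83.2 and 75.9 FPKM) stood above the rest. Rab6a, of retrograde transport through the Golgi, stood at 26.2, 40.0 and 32.4 FPKM. Its relative Rab6b, known from neurons, stood at 4.95, 1.15 and 3.22 FPKM and had the widest spread of the 55 members, 1.47 on the log2(FPKM + 1) scale, with replicate 2 lowest. Rab18, of lipid droplets and the endoplasmic reticulum, had the second narrowest spread after Rab1b at 27.3, 28.0 and 26.3 FPKM.

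Genes of regulated secretion were the smallest group, 2.73 ± 0.174% of the summed Rab FPKM (SD, n = 3), and 3 of 8 had a mean of at least 1 FPKM. Rab3a, known from synaptic vesicles, led at 21.7, 31.6 and 29.6 FPKM, ahead of Rab3d, a Rab of exocrine granules, at 10.3, 8.60 and 7.81 FPKM. Rab27a and Rab27b, of lysosome-related organelles and exosome release, stood at 1.46, 0.931 and 0.972 FPKM and at 0.791, 0.689 and 0.519 FPKM. By contrast Sytl4, a gene of a synaptotagmin-like effector that binds RAB27A and RAB3A, was the highest of 28 Rab effector genes at 104, 181 and 171 FPKM. The effector gene was thus far above Rab27a in each library, and RNA levels say nothing of the proteins. Rab27a shares exon positions with another gene on its strand.

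The 10 remaining Rab genes made 10.4 ± 0.780% of the sum, and all had a mean of at least 1 FPKM. Rab34, of macropinocytosis, lysosome position and cilium formation (chromosome 11, 78188427 to 78192193, plus strand), led at 48.4, 22.9 and 28.2 FPKM, or 33.2 ± 13.4 FPKM (SD, n = 3), highest in replicate 1. Rab20, a Rab of phagosomes, stood at 22.6, 33.9 and 33.1 FPKM, lowest in replicate 1. Rab42 (chromosome 4, 132300438 to 132303382, minus strand) differed between all 3 libraries, at 7.33, 20.1 and 13.0 FPKM. Rab36, a relative of Rab34, stood at 3.04, 2.16 and 1.11 FPKM. Rab28, of the cilium, varied little at 17.0, 16.5 and 15.7 FPKM.

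Each paralogue group had the same leading gene in every library. This held in all 14 groups examined, and in 7 of them the leading gene held over 80% of the group's summed FPKM in each library. Rab7 held 98.9 ± 0.50% of its pair with Rab7b (SD, n = 3), Rab9 99.8 ± 0.108% of its pair with Rab9b, Rab2a 94.3 ± 1.42% of its pair with Rab2b and Rab8a 94.4 ± 0.624% of its pair with Rab8b. The Rab5 genes divided their group into 47.2 ± 4.23% for Rab5c, 33.8 ± 3.31% for Rab5b and 19.0 ± 1.04% for Rab5a. The Rab40 genes, whose products join ubiquitin ligases, were divided alike in the 3 libraries, with 68.4 ± 0.374% from Rab40c. Shares within a library do not depend on the scaling between libraries.

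**Figure D4:**
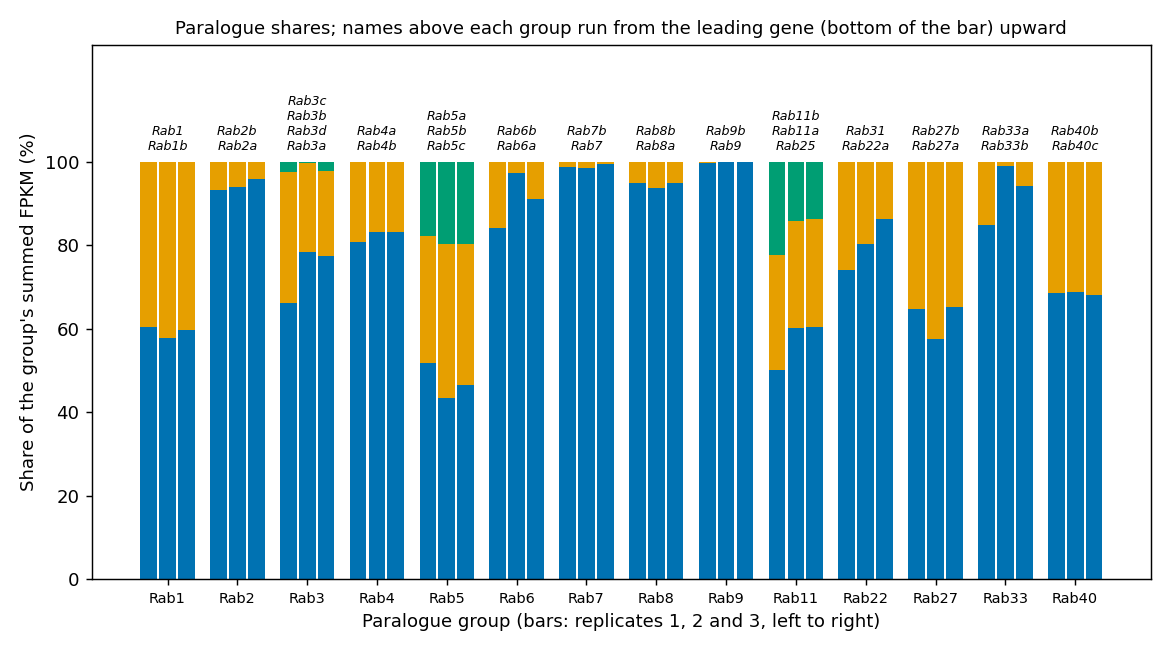
Share (%) of each Rab paralogue in the summed FPKM of its group, for 14 groups, with bars for replicates 1, 2 and 3 from left to right. The gene names above each group follow the order of the stacked segments, and the lowest segment is the leading gene, which is the same in all 3 libraries of every group; Rab25 makes 50.01% to 60.4% of the Rab11 group.

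Between libraries the members had a median spread like that of other genes, and on the scale used none was 2-fold from both other libraries. Differences were taken on the log2(FPKM + 1) scale, where the added 1 shrinks differences of weakly expressed genes, over the 55 members averaging 1 FPKM or more. In replicate 1, no member lay 2-fold or more below each other library, where 4.07% of all 13073 genes did, and none lay 2-fold or more above them, where 1.29% did. The count was also 0 below and above in replicate 2 (0.757% and 0.237% of all genes) and in replicate 3 (0.153% and 0.314%). From the highest to the lowest library, 4 members varied at least 2-fold, which is 7.27% of the 55 against 10.8% of all genes: Rab6b, Rab42, Rab34 and Dab2, the last at 2.0-fold. Without replicate 1 none of them did, and without replicate 2 only Dab2 did; without replicate 3 the number was 3, and with a pseudocount of 0.1 it was 8. With that pseudocount Rab6b in replicate 2 and Rab7b in replicate 3 were also 2-fold or more below each other library. The median range of the members was 0.36, the same as that of all genes at 0.36.

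At a limit of 1.5-fold, 15 members varied between the highest and the lowest library, 27.3% against 27.2% of all genes, a share that says nothing particular of the members. Replicate 1 was at least 1.5-fold below both others for Rab25 and Rab42, 3.64% of members against 8.09% of all genes, and at least 1.5-fold above both for Dab2, Rab34 and Rab15, 5.45% against 5.84%. Replicate 2 stood apart in the same way for Rab6b below (1.82% against 2.24%) and Rab42 above (1.82% against 1.25%). Replicate 3 was at least 1.5-fold below both others for Rab31 and Rab7b, 3.64% against 0.688% of all genes, and above both for none (0.956% of all genes). The median deviation of the 55 members from their own 3-library means was 0.05, 0.04 and -0.03 in replicates 1, 2 and 3, beside -0.01, 0.00 and 0.01 for all genes.

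**Figure D5:**
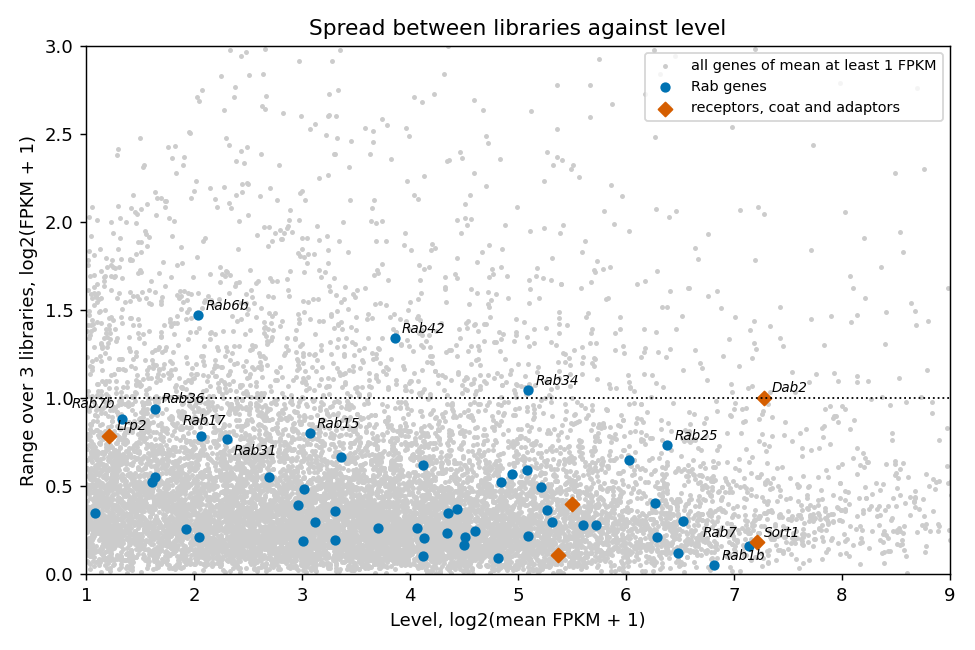
Range over the 3 libraries on the log2(FPKM + 1) scale against the level, log2(mean FPKM + 1), for genes averaging 1 FPKM or more (grey), with Rab genes (circles) and the uptake genes (diamonds); 336 genes lie outside the area drawn, which ends at a range of 3 and a level of 9. The dotted line is a 2-fold range, which Rab6b, Rab42, Rab34 and Dab2 reach; Rab7 and Sort1 lie near the bottom at the right.

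Genes that act with Rab proteins were read from 7 further lists. Of 117 such genes, 111 had a mean of at least 1 FPKM, and in replicate 1, 5 of them, 4.50%, were 2-fold or more below each other library, close to the 4.07% of all genes. They were Myo5b (above), Vldlr (above), Rilpl1, Micall2 and Hip1r, and none lay 2-fold above both in replicate 1 or apart in replicates 2 and 3. Rilpl1, a gene of an effector of Rab8 and Rab10 at the base of the cilium, stood at 14.4, 57.9 and 50.1 FPKM, and Micall2, a gene of an effector of Rab13 and Rab8 at cell junctions, at 4.10, 11.7 and 9.93 FPKM. Hip1r, which links clathrin coats to actin, stood at 39.5, 139 and 123 FPKM. Of the Rab genes these effectors bind, Rab8a was at 53.3, 46.0 and 43.8 FPKM, Rab10 at 30.2, 35.3 and 33.9 FPKM and Rab13, of tight junctions, at 10.8, 11.9 and 13.2 FPKM. The 5 genes above were picked by a 2-fold limit that no Rab gene reached, so a smaller difference in their Rab genes follows from the choice. These 5 genes were low in the library in which all 9 initial segment markers were lowest, and the part of those cells in it was not tested.

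The listed genes that prenylate Rab proteins, extract them from membranes or otherwise bind them were present in every library. Rabac1, a Rab acceptor gene, led that list of 8 at 300.4, 241 and 302 FPKM, and Gdi2, a GDP dissociation inhibitor gene, stood at 97.7, 127 and 119 FPKM. The lowest was Chml, a Rab escort protein gene, at 0.841, 1.28 and 0.963 FPKM. Among 22 exchange factor and GTPase-activating genes, Rab3ip, the exchange factor gene of Rab8 also called Rabin8, led at 55.3, 34.6 and 40.6 FPKM, and Rin1, an exchange factor gene of Rab5, was lowest at 1.65, 2.53 and 1.48 FPKM. Clta, a clathrin light chain gene, led the 15 clathrin and AP-2 genes at 235, 181 and 196 FPKM, and Snx1, a sorting nexin gene, the 14 retromer genes at 114, 189 and 176 FPKM. None of the prenylation, exchange factor, retromer or lysosome genes lay 2-fold from both other libraries in any library.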

How the data were processed

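RNA was measured in 3 libraries of 1 group. TRIzol was used for extraction and a stranded TruSeq mRNA kit for the libraries, per the labels' protocols. The authors deposited 1 table of normalized FPKM values per gene and library, per the file headers. The submitters' processing notes name TopHat2 2.1.1, Cufflinks 2.2.1 and mm10; for the annotation, strand setting, filters and the meaning of normalized, nothing is stated in the sources used here. Such values can be split between overlapping genes: 19 members share exon positions with a gene on the opposite strand and 6 with one on their own strand. Values were analysed as log2(FPKM + 1), for genes averaging 1 FPKM or more where differences are counted. No count model and no group test was used. Members, lists, motifs and the naming rule were chosen with earlier results of these data known. The rule named the 7 uptake genes, the 10 highest Rab genes, the highest of each role, the widest and narrowest 5, and the highest, lowest and 2-fold apart genes of each pathway list; other genes were chosen after their values were seen. Alternatives were leaving out each replicate, other scalings, pseudocount, filters and fold limits. Python 3.11.15, numpy 2.4.6, pandas 2.3.3, scipy 1.17.1 and matplotlib 3.10.9 were used.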

Additional observations from a re-analysis of the deposited data

How the results depend on the processing

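Of 329 alternative values, 30 moved by more than the spread between libraries or, for counts, by more than 1.5 times. None of the paralogue shares, receptor ratios, summed Rab levels or numbers of members at or above 1 FPKM did. For shares and ratios no other outcome was possible. Scaling cancels in them, and leaving out 1 of 3 libraries cannot move a mean by more than the SD. The summed Rab levels and the means of named genes were bound in the same way when a library was left out. These unmoved values therefore say nothing of how firm the results are. Leaving out 1 replicate gave a median member level of 4.33 to 4.46. The median range was then 0.13 without replicate 1, 0.27 without replicate 2 and 0.21 without replicate 3, beside 0.16, 0.23 and 0.27 for all genes. For a given gene a range over fewer libraries cannot be larger, and among these settings it was smallest without replicate 1. Leaving out 1 replicate also gave 0 to 3 members 2-fold apart between the highest and lowest library. In replicate 1, with a single other library to differ from, 0 to 1 lay below and 1 to 2 above. The numbers were 0 to 2 below and 0 to 1 above in replicate 2, and 0 to 1 below in replicate 3. The median deviation in replicate 2 was then -0.016 to 0.033. With each library rescaled to the same total, the median deviations were 0.11 in replicate 1 and -0.11 in replicate 3, beside 0.05 and -0.07 for all genes. A pseudocount of 0.1 gave a median level of 4.29, 8 members 2-fold apart, and 1 member (Rab6b) 2-fold below both others in replicate 2 and 1 (Rab7b) in replicate 3. The median level was 3.96 without a filter and 4.83 for a mean of at least 5 FPKM, where the median deviation in replicate 1 was -0.028; these follow from which genes are kept. At a 1.5-fold limit, 15 members varied between libraries, 2 lay below and 3 above in replicate 1, 1 below and 1 above in replicate 2 and 2 below in replicate 3, and 12 pathway genes lay below in replicate 1. The count of 2-fold ranges and the pathway count with their alternatives were added after seeing the data. Without counts, no floor or counting interval can be given for low genes such as Cubn. No paired analysis was possible because there is 1 group.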
